A study of Mus musculus with 12 samples.

Results

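The collagen genes were followed in the lungs of offspring of Abcb11-/- and WT mothers and in the livers of adult Abcb11-/- and WT females. A gene was taken as a member when its symbol had the form Col, number, a, number, and when at least 1 probe set was annotated to it alone. There were 42 such genes of the 17097 genes measured in each tissue, read by 68 probe sets. Where a gene had several probe sets, the one with the highest mean over the 6 arrays of that tissue was kept. The members fell into 11 fibrillar collagens, 9 basement membrane collagens and 22 others, which are the fibril-associated, beaded filament, transmembrane and short-chain types. Of 44 collagen genes listed by name, Col6a6 and Col28a1 had no probe set annotated to them alone.

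Collagens are the main structural proteins of the extracellular matrix. Their alpha chains wind into a long helix, which fibroblasts and other cells secrete and cross-link. Fibrillar collagens such as types I, III and V form the tensile fibrils of the interstitium, whereas type IV collagen forms the sheet of the basement membrane under epithelium and endothelium. In the lung this sheet lies between the airspace and the capillary, and it is remodelled as the gas-exchange region matures before birth. In the healthy liver most interstitial collagen lies around the portal tracts, and stellate cells are its best known source during fibrosis.

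Abcb11 encodes the bile salt export pump, which moves bile salts out of hepatocytes. All mice were C57BL/6. Each lung array held Abcb11+/- offspring, from Abcb11-/- females crossed with WT males or from WT females crossed with Abcb11-/- males, at embryonic day 17.5 (E17.5), embryonic day 18.5 (E18.5) or the day of birth (PN0), with 1 array for each of the 3 stages and each mother. Fathers and mothers thus differed together, and how many pups were on an array is not given. The livers came from Abcb11-/- females and WT females aged 1.5 months, with 3 arrays per genotype. Nothing in the labels says more about how far the liver replicates are independent, so the p-values measure the spread between these arrays. All values are log2 signals from oligonucleotide probes, so levels are compared for 1 gene across arrays and not between genes, and liver and lung levels were normalised apart.

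Abcb11 itself was at 2.90, 3.14 and 3.26 in Abcb11-/- livers, against 11.22, 11.04 and 10.88 in WT livers. The lungs carried the surfactant gene Sftpc at 13.23 to 13.39 on all 6 arrays. The hepatocyte markers, 11 genes, averaged 11.83 to 12.21 over the 6 livers. On the lung array of E17.5 with an Abcb11-/- mother they averaged 10.04, against 4.34 to 5.68 on the other lung arrays, and 15 skeletal muscle markers averaged 7.22 there, against 3.86 to 4.59. That array thus carried transcripts of liver and muscle genes, and the calls between stages that rest on it are also given without it. In whole tissue, fewer cells of a type and less RNA per cell cannot be told apart.

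More collagen genes were bright in the lung than in the liver. A mean log2 signal of 6 or more, used here as a mark of a clearly bright probe set, was reached by 20 of the 42 genes in the lung and by 7 in the liver, and those 7 were bright in both tissues. The 20 bright lung members comprised 5 fibrillar, 7 basement membrane and 8 other collagens. The 7 bright liver members were Col3a1 and Col5a1 (fibrillar), Col4a1, Col4a2 and Col18a1 (basement membrane), and Col6a3 and Col14a1. The 22 dimmer lung members ran between 2.74 and 6.63 on single arrays. For Col1a2, the partner of Col1a1 in type I collagen, the only probe set annotated to it alone was dim in both tissues, at 2.50 to 2.69 in the liver and 2.97 to 3.59 in the lung. Nothing is read here from Col1a2.

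The first question was how the collagen genes moved in the lung from E17.5 to birth. The data show a shift within the basement membrane class. Col4a3 and Col4a2 rose and Col15a1 and Col18a1 fell between E17.5 and PN0, and outside that class only Col9a1 passed the test. Type IV chains are encoded by gene pairs that start head to head, and the promoters of the chains discussed here are shown first because the paired genes are compared with each other in both tissues. The windows are from RefSeq (GRCm38.p6) and run from 250 bases before to 50 bases after an annotated start. Such a window was given for 33 of the 42 members. The windows of Col4a1 (chr8:11312777-11313076, minus strand) and Col4a2 (chr8:11312555-11312854, plus strand) overlap, and the 78 bases they share are in capitals, read on opposite strands. The window of Col4a4 (chr1:82586800-82587099, minus strand) spans the annotated start of Col4a3 on the other strand, and its capitals mark the 114 bases by which the annotated genes Col4a4 and Col4a3 overlap.
Col4a1: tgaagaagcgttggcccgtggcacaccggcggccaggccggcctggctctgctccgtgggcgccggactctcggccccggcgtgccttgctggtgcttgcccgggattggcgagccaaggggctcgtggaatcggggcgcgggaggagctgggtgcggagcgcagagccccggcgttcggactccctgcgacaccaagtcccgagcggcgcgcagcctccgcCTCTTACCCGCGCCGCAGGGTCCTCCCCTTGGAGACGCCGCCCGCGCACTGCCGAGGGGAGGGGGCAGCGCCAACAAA
Col4a2: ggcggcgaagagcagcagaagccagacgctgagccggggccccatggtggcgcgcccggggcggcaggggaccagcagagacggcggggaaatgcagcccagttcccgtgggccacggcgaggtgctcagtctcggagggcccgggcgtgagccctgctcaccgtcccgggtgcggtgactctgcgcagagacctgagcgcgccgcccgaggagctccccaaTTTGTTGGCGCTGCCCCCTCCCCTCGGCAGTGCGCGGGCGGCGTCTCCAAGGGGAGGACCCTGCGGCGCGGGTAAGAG
Col4a4: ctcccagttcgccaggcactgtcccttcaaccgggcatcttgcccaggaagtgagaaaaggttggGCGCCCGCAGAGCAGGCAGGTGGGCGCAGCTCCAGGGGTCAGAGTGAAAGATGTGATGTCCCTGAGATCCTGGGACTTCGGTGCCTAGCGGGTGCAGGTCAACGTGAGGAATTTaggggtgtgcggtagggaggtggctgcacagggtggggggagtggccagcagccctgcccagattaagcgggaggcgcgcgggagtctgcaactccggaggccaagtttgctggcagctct

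The Col4a1 window held 1 copy of GGGCGG (the GC box, counted on both strands) and the Col4a2 window held 3, and each held 1 copy of CCAAT. Of all 32851 windows of this length, 35.7% held GGGCGG and 37.4% held CCAAT. Neither sequence was found in the Col4a4 window, and TATAAA, held by 13.6% of all windows, was in none of these windows. The third pair, Col4a6 and Col4a5 on chromosome X, lies further apart, with 1274 bases between the annotated genes.

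The stage comparison was fitted with limma over all 17097 genes, with terms for stage and mother. Between neighbouring stages no collagen gene passed an adjusted p of 0.05. At E18.5 against E17.5 the lowest adjusted p of a member was 0.111, while 0.0526% of all genes were called higher and 0.00585% lower. Without the E17.5 array that held liver and muscle transcripts this step called 1 member higher and 3 lower, where 0.784% of all genes were called higher and 1.01% lower. With all 6 arrays, 13 of 42 members had an unadjusted p under 0.05 at E18.5 against E17.5, where 12.8% of all genes did. At PN0 against E18.5 the lowest adjusted p was 0.339, with 0% of all genes called higher and 0% lower, and 2 of 42 members had an unadjusted p under 0.05 (12.3% of all genes). The contrast of PN0 with E17.5 was added after these results were seen. It called 2 of 42 members higher and 3 of 42 lower, while 3.06% of all genes were called higher and 2.83% lower. Basement membrane collagens supplied 4 of those 5 calls, from 9 members.

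Col4a3 encodes a type IV chain that assembles with the products of Col4a4 and Col4a5, a network known from the alveolar and glomerular basement membranes. It was at 7.01, 8.07 and 8.32 at E17.5, E18.5 and PN0 with Abcb11-/- mothers, and at 6.46, 8.29 and 8.63 with WT mothers. Both E17.5 arrays lay below all 4 later arrays, and most of the change fell in the step to E18.5. The change at PN0 against E17.5 was 1.74 ± 0.23 on the log2 scale (SE), or 3.33-fold (limma, adjusted p = 0.0221). A second probe set of Col4a3 changed by 1.55.

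Col4a4, its head-to-head partner, was at 8.33, 8.67 and 8.94 over the 3 stages with Abcb11-/- mothers, and at 8.02, 9.01 and 8.71 with WT mothers. Here too both E17.5 arrays were the lowest, but the change of 0.65 ± 0.19 (SE) did not pass (adjusted p = 0.111). Col4a5, which completes the network, was flat at 9.37 to 9.84 on all 6 arrays, with a change of -0.21 (adjusted p = 0.516).

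Col4a1 and Col4a2 encode the chains of the type IV collagen found in nearly all basement membranes. Col4a2 was at 10.68, 11.14 and 11.31 over the 3 stages with Abcb11-/- mothers, and at 10.63, 11.25 and 11.32 with WT mothers. Its E17.5 arrays lay below the later ones for both mothers, with a change of 0.66 ± 0.13 (SE, limma adjusted p = 0.0480). Col4a1 was at 12.06, 12.32 and 12.45 with Abcb11-/- mothers, and at 12.04, 12.45 and 12.47 with WT mothers. The order of its arrays was alike, but the change of 0.41 ± 0.13 did not pass (adjusted p = 0.132). The call of Col4a2 was lost without any 1 of the 6 arrays, with adjusted p of 0.0793 to 0.236.

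Other basement membrane genes moved down. Col15a1 encodes a collagen that ties the basement membrane to the interstitium, and it stood at 6.87, 5.84 and 5.63 over the stages with Abcb11-/- mothers and at 6.92, 6.08 and 4.85 with WT mothers. The stages did not overlap between E17.5 and the later arrays, and the change was -1.66 ± 0.26 (SE, limma adjusted p = 0.0296). Col18a1, whose protein is a heparan sulfate proteoglycan and the source of endostatin, was at 8.54, 7.89 and 7.73 with Abcb11-/- mothers and at 9.16, 7.84 and 7.53 with WT mothers. Its change was -1.22 ± 0.22 (adjusted p = 0.0398), and its other probe set changed by -1.51. Col4a6, a further type IV chain, was dimmer, at 5.003 to 6.25 over the 6 arrays, and changed by -0.94 ± 0.20, just outside the threshold (adjusted p = 0.0523).

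Col9a1, a fibril-associated collagen best known from cartilage, was at 5.23, 3.84 and 3.85 over the 3 stages with Abcb11-/- mothers and at 6.63, 3.98 and 3.97 with WT mothers. The E17.5 arrays stood above all others, and the change was -2.02 ± 0.33 (SE, limma adjusted p = 0.0318). A second, dim probe set of Col9a1 changed by -0.39 and did not keep this order. On it the E17.5 array with an Abcb11-/- mother (3.27) lay below both E18.5 arrays (3.48 and 3.50). Col9a3, which encodes a partner chain, was at 4.96 on the E17.5 array with a WT mother and at 2.85 to 3.72 on the others. The 13 chondrocyte markers averaged 3.95 to 3.99 over the 3 arrays with Abcb11-/- mothers, and 4.29, 4.07 and 3.84 at E17.5, E18.5 and PN0 with WT mothers. Among them the cartilage gene Cytl1 stood at 6.22 on the E17.5 array with a WT mother and at 3.54 to 4.04 on the others, while Acan lay between 2.96 and 3.57 throughout. The part of cartilage in the Col9a1 result was not tested.

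**Figure D1:**
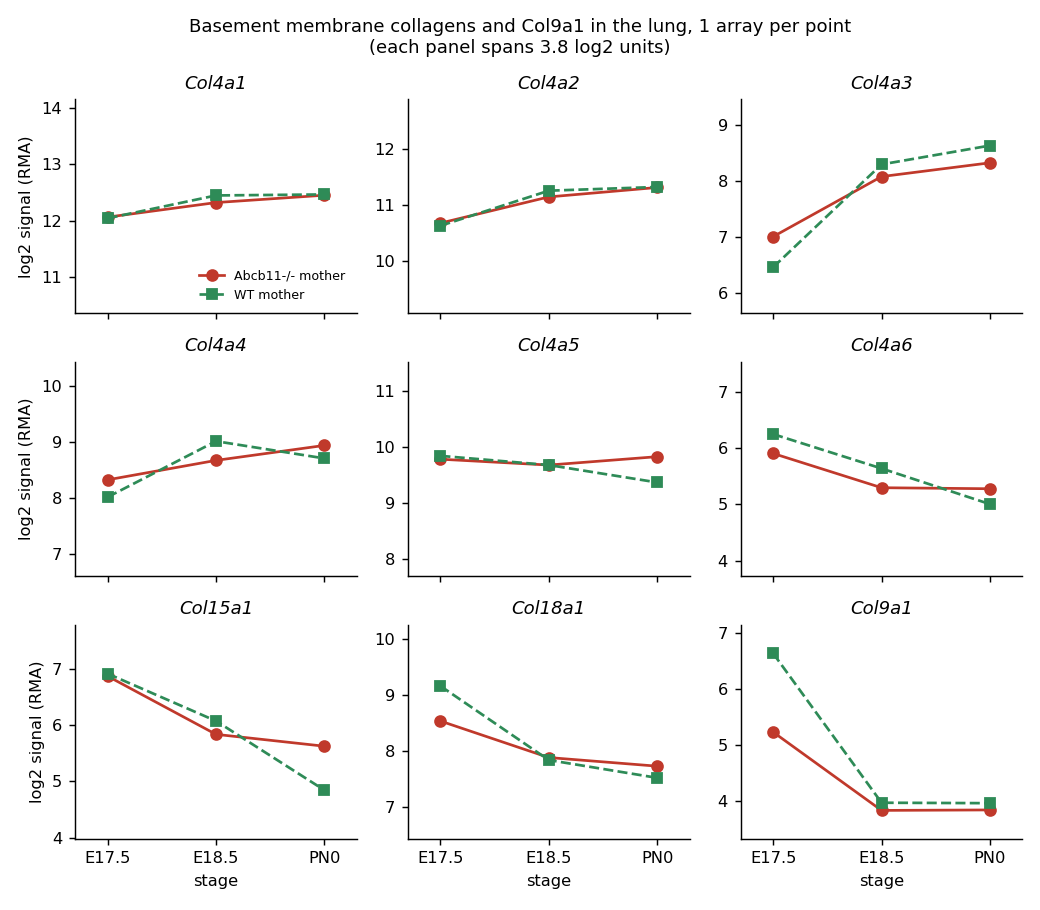
Log2 signal of 8 basement membrane collagens and Col9a1 over the 3 lung stages, with 1 array per point (red circles, Abcb11-/- mother, green squares, WT mother) and the same span on every vertical axis. Col4a3 lies lowest at E17.5 with both mothers, and Col15a1, Col18a1 and Col9a1 lie highest there.

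The other 37 members did not pass at PN0 against E17.5, with changes of -1.25 to 0.65. Among them were the abundant fibrillar collagens. Col1a1 changed by -0.08 (adjusted p = 0.837), Col3a1 by -0.13 (adjusted p = 0.661) and Col5a2 by -0.15 (adjusted p = 0.622). The beaded filament genes Col6a1 and Col6a2, whose products form microfibrils around cells, did not pass either. Col6a1 was at 10.50, 10.97 and 10.99 with Abcb11-/- mothers and at 10.35, 11.002 and 10.67 with WT mothers, a change of 0.40 ± 0.15 (SE, limma adjusted p = 0.168). Col6a2 was at 11.04, 11.37 and 11.32 with Abcb11-/- mothers and at 11.22, 11.45 and 10.92 with WT mothers, a change of -0.01 ± 0.18 (adjusted p = 0.985). By class, the median change at PN0 against E17.5 was -0.20 for fibrillar, 0.15 for basement membrane and -0.09 for other collagens, beside -0.0040 over all genes.

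These calls at PN0 against E17.5 rested on few arrays. Without the E17.5 array that held liver and muscle transcripts, 1 member was called higher and 5 lower, where 3.23% of all genes were called higher and 4.28% lower. In that fit the changes were 2.14 for Col4a3, 0.71 for Col4a2, -1.82 for Col15a1, -1.59 for Col18a1 and -2.66 for Col9a1. Without the PN0 array of the WT mother no member was called, and the calls over all genes dropped to 23 higher and 3 lower (0.135% and 0.0175%). Several cell marker lists moved over the same stages. Of 16 cell cycle genes, 15 were called lower at PN0 against E17.5, with a median of -1.82. Of 13 endothelial markers, Cldn5 (0.88) and Vwf (1.05) were called higher, with a median of 0.56 over the list, and of 14 stellate cell and myofibroblast markers, Pdgfrb (0.75) was. The hepatocyte genes Afp and Alb were also called lower, with a log2 change of -5.00 for Alb. The median change of the 11 hepatocyte markers was -6.39 with Abcb11-/- mothers, whose E17.5 array held liver transcripts, and -0.98 with WT mothers. The part of any of these in the collagen results was not tested. Of genes that process collagen, Pcolce2, an enhancer of the proteinase that trims procollagen, was called higher (1.30, limma adjusted p = 0.0276), as 1 of 13 such genes. None of 19 genes for chain modification and folding, 9 collagen receptors and 10 basement membrane partners was called in either direction.

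The second comparison set the lungs of offspring of Abcb11-/- mothers against those of WT mothers. Over the 3 stages together no collagen gene was called in either direction. The lowest adjusted p was 0.926, the fitted differences ran between -0.55 (Col9a1) and 0.34 (Col25a1), and 0% of all genes were called higher and 0% lower. At an unadjusted p under 0.05 there were 2 members, Col25a1 and Col6a4, and 867 genes in all, or 5.07%. At a single stage there is 1 array for each mother, so the differences below carry no test and no replicate check.

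At E17.5 no member was at least 1.5-fold higher with the Abcb11-/- mother and 4 were at least 1.5-fold lower, where 3.47% of all genes were higher by that much and 3.55% lower. These were Col9a1, Col9a3, Col2a1 and Col18a1, and the first 3 of them are cartilage collagens. The E17.5 array with liver and muscle transcripts enters each of these differences, and the median of the 42 was -0.08. At E18.5 no member was 1.5-fold apart in either direction (2.13% of all genes were higher and 1.26% lower), and the median difference of the 42 was -0.05. At PN0, 7 of 42 members were at least 1.5-fold higher with the Abcb11-/- mother and none was lower, beside 4.16% of all genes higher and 2.88% lower. The median difference at PN0 was 0.23, beside 0.01 over all genes, and 28 of the 42 were above 0.

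The members that differed at PN0 were spread over the classes. Col6a3, the longest chain of type VI collagen, was at 11.61, 11.62 and 11.59 at E17.5, E18.5 and PN0 with Abcb11-/- mothers and at 11.65, 11.69 and 10.92 with WT mothers. Col14a1, which binds the surface of collagen fibrils, was at 10.05, 9.91 and 9.78 with Abcb11-/- mothers and at 10.01, 9.87 and 9.12 with WT mothers. In both genes 5 arrays lay close together and the PN0 array of the WT mother lay below them. Col25a1, a transmembrane collagen, was at 9.14, 8.75 and 8.96 with Abcb11-/- mothers and at 8.95, 8.50 and 8.36 with WT mothers, and it was higher with the Abcb11-/- mother at each stage. Their differences at PN0 were 0.68, 0.66 and 0.60. These were 3 of the 19 members whose brighter PN0 array reached log2 6, and none of the 19 was 1.5-fold lower, where 4.39% of such genes were higher and 3.15% lower. The remaining 4 were dimmer. Col15a1, described above, differed by 0.78 and Col8a2 by 0.62, while Col11a1 (0.78) and Col2a1 (1.29) lay between 2.91 and 4.23 at PN0. The other Col11a1 probe set, also dim, differed by only 0.11 at PN0.

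Among the 20 members bright in the lung, 16 were higher at PN0 with the Abcb11-/- mother, against 6 at E18.5 and 10 at E17.5. Of all 7222 genes as bright, 52.7% were higher at PN0, 54.9% at E18.5 and 41.6% at E17.5. All 8 bright members of the other class were higher, by 0.26 to 0.68. Of the 5 bright fibrillar collagens 4 were higher, namely Col1a1 (0.45), Col3a1 (0.30), Col5a2 (0.22) and Col5a1 (0.19), while Col27a1 was lower (-0.31). The direction of Col27a1 depended on the probe set. Its other probe set was at 6.20 with the Abcb11-/- mother, against 5.99 with the WT mother (0.21). The basement membrane class was divided. Col15a1, Col4a5 (0.46), Col4a4 (0.23) and Col18a1 (0.21) were higher, Col4a1 and Col4a2 differed by -0.01 each, and Col4a3 was lower (-0.31).

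**Figure D2:**
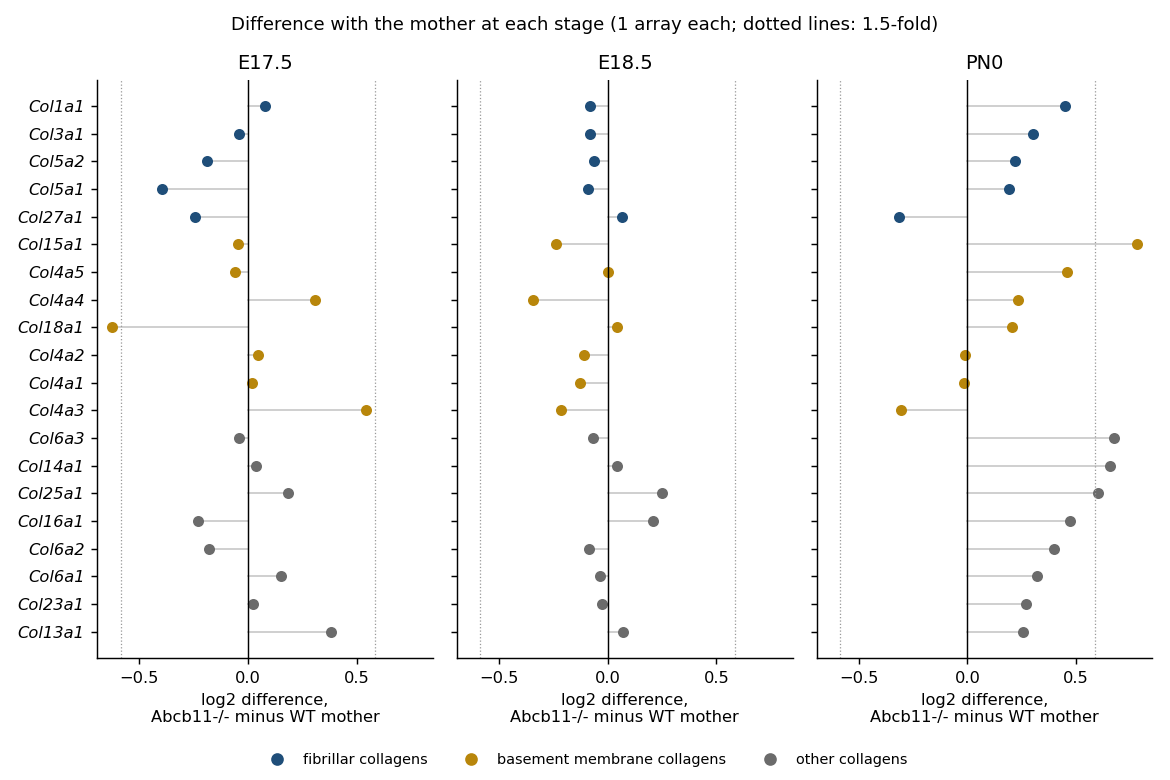
Log2 difference between the lung with an Abcb11-/- mother and that with a WT mother for the 20 collagen genes with a mean signal of 6 or more, at each stage (1 array for each mother, dotted lines at 1.5-fold, colours by class). At PN0, 16 of the 20 points lie right of 0, against 6 at E18.5.

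Seen as the change around birth, the larger drops of the bright members lay on the WT side. From E18.5 to PN0 with Abcb11-/- mothers the 20 bright members changed by -0.28 to 0.27, and none dropped by 1.5-fold. With WT mothers they changed by -1.23 to 0.34, and 16 of the 20 were lower at PN0, 3 of them by at least 1.5-fold (Col15a1, Col6a3 and Col14a1). Of all 7222 genes as bright, 543 dropped by that much with WT mothers and 200 with Abcb11-/- mothers. Rises of that size numbered 413 and 204, so changes with WT mothers were larger over all genes too. The median change of the 20 was -0.28 with WT and 0.07 with Abcb11-/- mothers, beside -0.04 and -0.05 over all genes as bright. In 18 of the 20 the change with the Abcb11-/- mother was the higher of both. The same PN0 arrays enter both descriptions, so this is the same pattern and no second piece of evidence. The PN0 array of the WT mother was the lowest of the 6 for 13 of the 20 bright members (65.0%) and for 31.2% of all genes as bright.

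**Figure D3:**
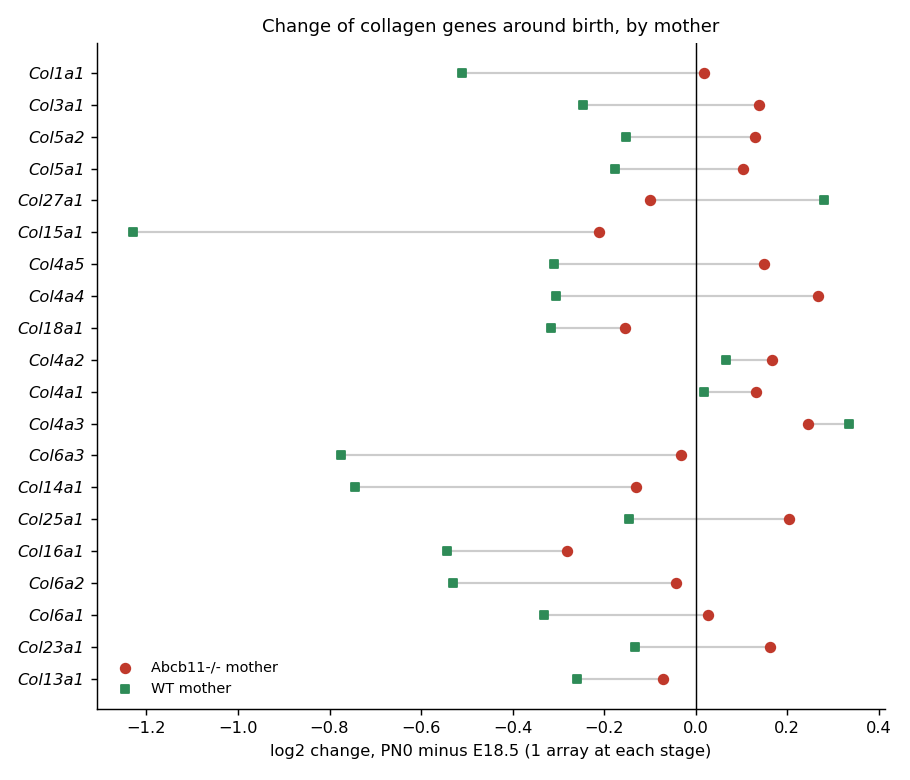
Log2 change from E18.5 to PN0 of the 20 bright collagen genes, for Abcb11-/- mothers (red circles) and WT mothers (green squares), with 1 array at each stage. The red points lie between -0.28 and 0.27, and the green points reach -1.23 for Col15a1.

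Of 14 stellate cell and myofibroblast markers, 2 were at least 1.5-fold higher at PN0 with the Abcb11-/- mother, Lum and Dcn, and none was lower by that much. Lum was at 7.84 at PN0 with the Abcb11-/- mother, against 5.49 with the WT mother, and Dcn was at 8.75, against 7.37. Both encode small proteoglycans that bind collagen fibrils. The 14 markers as a whole differed by a median of 0.07 at PN0, with 8 of the 14 above 0, the lowest at -0.54, and a mean level of 6.72 on the array with the Abcb11-/- mother and 6.53 on that with the WT mother. Acta2 differed by 0.25 and Pdgfrb by -0.33. Genes for collagen modification and folding had a median difference of 0.09, with 3 of 19 at least 1.5-fold higher and 1 lower. The collagen chaperone gene Serpinh1 was at 10.96 with the Abcb11-/- mother, against 10.56 with the WT mother. The part of fibroblast content or of this 1 array in the collagen pattern was not tested.

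The third comparison set Abcb11-/- livers against WT livers. A single collagen gene, Col5a3, passed the test and was higher, while the remaining 41 did not pass and none was called lower. Over all genes 4.33% were called higher and 2.91% lower, so 1 of 42 and 0 of 42 are not more than the background. Without Abcb11-/- replicate 2, 3 members were called higher and 1 lower, where 5.19% of all genes were called higher and 3.63% lower. Col5a3 encodes a chain of type V collagen, a minor fibrillar collagen that helps to start and limit the growth of fibrils. It was at 5.50, 5.81 and 5.90 in Abcb11-/- livers, against 4.56, 4.21 and 4.19 in WT livers. The genotypes did not overlap, with means of 5.74 ± 0.21 in Abcb11-/- and 4.32 ± 0.21 in WT (SD, n = 3 arrays each). The difference was 1.42 ± 0.15 (SE), or 2.67-fold (limma, adjusted p = 0.00226), from a probe set of modest signal. The other Col5a3 probe set lay between 2.60 and 3.03 on the 6 arrays and showed no such difference (-0.10). In the lung the kept probe set was dim, at 3.27 to 3.57.

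On their kept probe sets, the chains that form fibrils with Col5a3 were flat or varied within a genotype. Col5a1 was at 6.51, 5.74 and 6.14 in Abcb11-/- livers, against 6.13, 6.06 and 6.14 in WT livers, a difference of 0.02. Another Col5a1 probe set was at 5.41, 5.31 and 5.10 in Abcb11-/- livers, against 4.89, 4.80 and 4.74 in WT livers, higher without overlap (0.46). A further, dim Col5a1 probe set differed by 0.17, with overlapping groups. Col5a2 was at 6.36, 5.81 and 5.57, against 5.24, 5.16 and 6.43 (0.30, adjusted p = 0.700). Its second probe set differed by 0.46, with overlapping groups. Col1a1 was dim, at 4.19, 3.13 and 3.59 in Abcb11-/- livers, against 2.95, 3.65 and 3.89 in WT livers (0.14, adjusted p = 0.860). Col3a1, the chain of type III collagen, was at 11.53, 9.97 and 10.55 in Abcb11-/- livers, against 9.43, 9.77 and 10.31 in WT livers. Its groups overlapped, and its difference of 0.85 ± 0.39 (SE) did not pass (adjusted p = 0.264). The second Col3a1 probe set differed by 1.13, and its groups overlapped too.

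For type IV collagen, Col4a1 came nearest to the threshold in the liver. Col4a1 was at 8.48, 7.82 and 8.17 in Abcb11-/- livers, against 7.64, 7.32 and 7.11 in WT livers. These groups did not overlap, and the difference of 0.80 ± 0.19 (SE), or 1.74-fold, fell just short of the threshold (limma, adjusted p = 0.0511). It passed with the bright genes alone tested (adjusted p = 0.0334) and without Abcb11-/- replicate 2 (adjusted p = 0.0214). A trended robust prior (adjusted p = 0.0283) and a replicate block (adjusted p = 0.0444) also brought it under the threshold. Quantile normalisation (adjusted p = 0.0505) and the methods' t-test after adjustment (adjusted p = 0.226) did not. Col4a1 did not pass with averaged probe sets either (adjusted p = 0.110), or without any 1 of the other 5 arrays (adjusted p of 0.0654 to 0.167). Over all alternatives with adjustment the adjusted p ran from 0.0214 to 0.226. Its second probe set differed by 0.31. Col4a2 was at 7.65, 7.27 and 7.45 in Abcb11-/- livers, against 7.43, 7.04 and 7.41 in WT livers, with overlapping groups and a difference of 0.16 (adjusted p = 0.592, 95% interval -0.17 to 0.50). The difference between the changes of the 2 chains was not tested. Col4a5 was at 7.68, 5.30 and 6.21 in Abcb11-/- livers, against 5.21, 5.23 and 5.44 in WT livers, and its mean difference of 1.10 came largely from replicate 1 (adjusted p = 0.271). The dimmer second probe set of Col4a5 differed by 0.04, with overlapping groups. Col4a3 and Col4a4 were dim, at 3.23 to 3.47 and 3.47 to 4.10 in Abcb11-/- livers, against 2.76 to 3.24 and 3.05 to 3.83 in WT livers. Col18a1, which hepatocytes are known to express, was bright and flat on its kept probe set, at 10.85, 10.70 and 10.84 in Abcb11-/- livers, against 10.85, 10.87 and 10.78 in WT livers. Its other probe set was at 10.36, 10.22 and 10.25, against 10.59, 10.54 and 10.37, lower without overlap (-0.22).

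**Figure D4:**
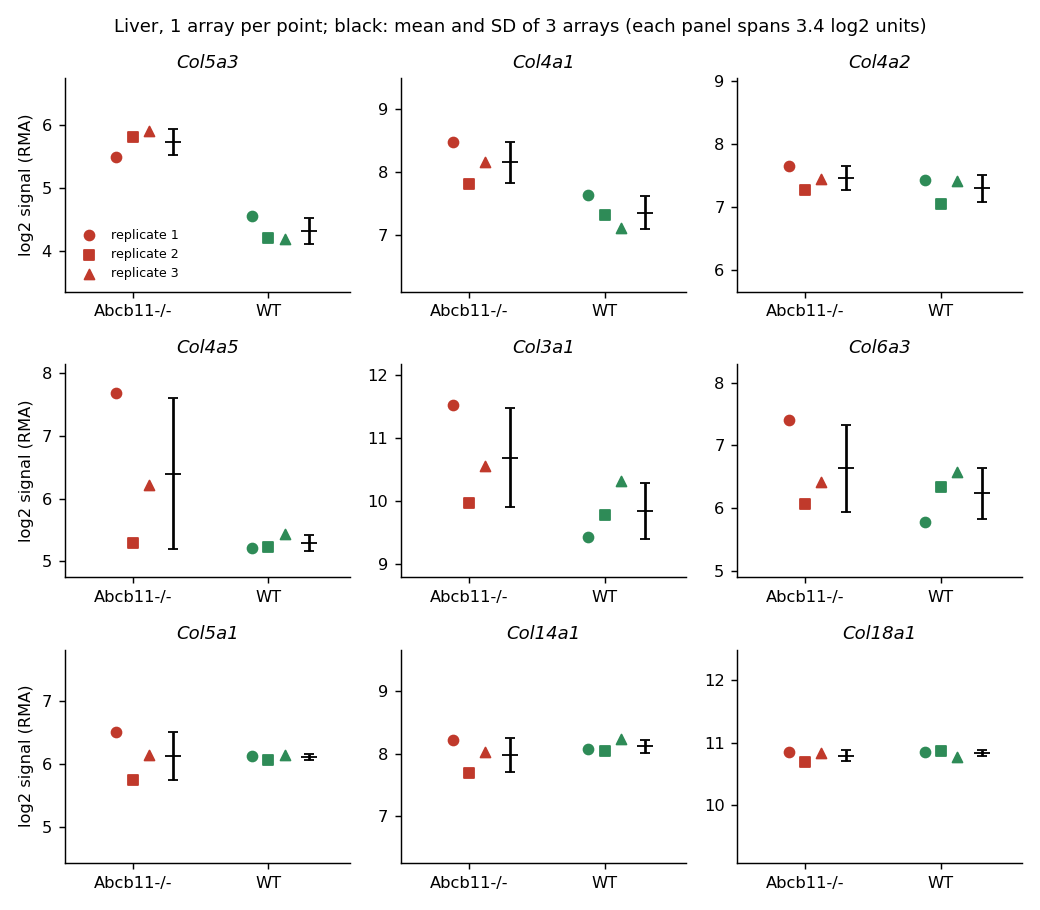
Log2 signal of 9 collagen genes in Abcb11-/- livers (left, red) and WT livers (right, green), with 1 array per point, a marker shape for each replicate number, the mean and SD of 3 arrays in black, and the same span on every axis. Col5a3 and Col4a1 do not overlap between the genotypes. The circle of Abcb11-/- replicate 1 lies highest in its group in every panel but that of Col5a3, most clearly for Col4a5, Col3a1 and Col6a3.

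Beyond these genes the differences were small. Of the 42 members 21 had a higher and 21 a lower mean in Abcb11-/- livers, and the median difference was 0.0083, beside 0.0033 over all genes. By class the median was 0.02 for fibrillar, 0.20 for basement membrane and -0.08 for other collagens. In 3 members all Abcb11-/- arrays lay above all WT arrays (Col5a3, Col4a1 and Col9a1) and in 5 all lay below (Col27a1, Col16a1, Col19a1, Col24a1 and Col26a1). Over all genes 13.8% were apart in the first way and 12.1% in the second. Of the members with lower values, Col27a1, a fibrillar collagen, came nearest to the threshold, at 4.36, 4.33 and 4.44 in Abcb11-/- livers, against 4.79, 4.63 and 4.87 in WT livers (-0.39, adjusted p = 0.0534). The other Col27a1 probe set was at 3.94, 3.91 and 4.07, against 4.07, 4.10 and 4.11, and differed by -0.12. With averaged probe sets the adjusted p of Col27a1 was 0.101 (limma). The beaded filament genes did not pass either. Col6a1 was at 5.98, 5.63 and 5.48 in Abcb11-/- livers, against 5.15, 5.65 and 5.51 in WT livers (0.26), and Col6a2 at 6.29, 5.68 and 5.76, against 4.98, 5.72 and 5.84 (0.40).

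**Figure D5:**
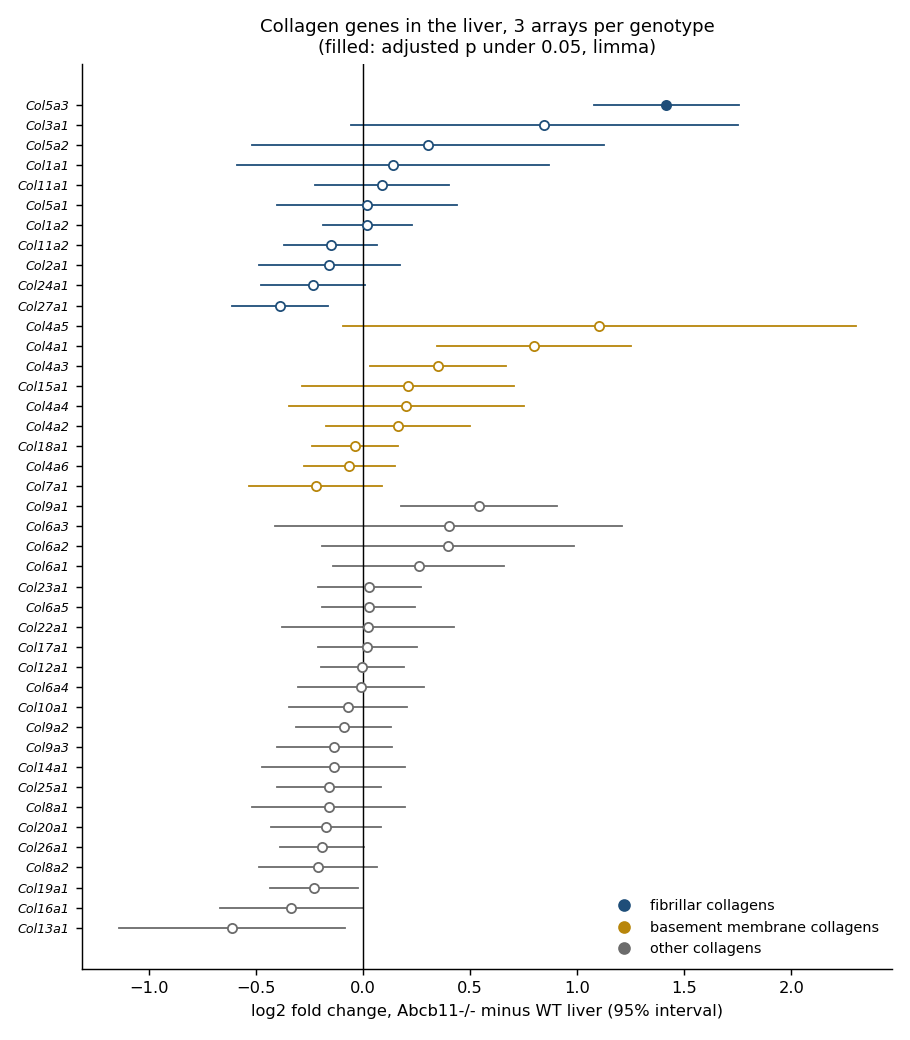
Log2 fold change of the 42 collagen genes in Abcb11-/- against WT livers (limma, 3 arrays each) with 95% intervals, ordered by size within each class. Only Col5a3 is filled, for an adjusted p of 0.00226, and the widest interval belongs to Col4a5.

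The spread within a genotype was larger for the bright collagens than for bright genes at large. The median SD of the 7 bright collagens was 0.33 in Abcb11-/- and 0.22 in WT livers, beside 0.14 and 0.10 over all 6375 genes as bright. Within Abcb11-/- livers replicate 1 was the highest of the 3 for all 7 (100%), while it was the highest for 35.8% of all bright genes. In that liver the 16 cell cycle genes averaged 6.45, against 4.41 and 4.37 in the other Abcb11-/- livers and 3.89 to 4.57 in WT livers, and Mki67, a marker of dividing cells, was at 6.77, against 3.94 to 4.84 in the other 5. The 14 stellate cell and myofibroblast markers averaged 5.78 to 5.97 in Abcb11-/- livers and 5.77 to 6.00 in WT livers, with a median difference of -0.05. None of the 14 was called higher and 1 was called lower (Reln, -0.89, adjusted p = 0.00803). In 5 of the 14 all Abcb11-/- arrays lay above all WT arrays and in 2 all lay below, beside 13.8% and 12.1% over all genes. The part of replicate 1 or of stellate cells in the collagen values was not tested.

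Over 4 lists of genes that act with collagen, 3 of 51 genes were called higher and 2 of 51 lower, near the background of 4.33% and 2.91%. Nid1 encodes nidogen, which links type IV collagen to laminin. It was at 8.61, 7.58 and 8.40 in Abcb11-/- livers, against 6.74, 6.79 and 6.69 in WT livers, without overlap and with a difference of 1.46 ± 0.24 (SE, limma adjusted p = 0.0134). It was the only one of 10 basement membrane partners called. Of 13 genes for collagen processing and cross-linking 2 were higher and 1 lower. Tgm2, a transglutaminase, was at 10.57, 10.71 and 10.48, against 9.82, 9.58 and 9.59 (0.92, adjusted p = 0.00364), and Sparc, a collagen-binding matrix protein, was higher by 0.62 (adjusted p = 0.0249). Bmp1, the procollagen C-proteinase, was lower by -0.41 (adjusted p = 0.0451). Of 19 genes for modification and folding 0 were higher and 1 lower, Mia3, which serves the export of procollagen from the endoplasmic reticulum (-0.73, adjusted p = 0.00822). None of 9 collagen receptors was called. Of 7 cholangiocyte markers 2 were called higher, Sox9 (1.15, adjusted p = 0.0415) and Epcam (0.67, adjusted p = 0.0123), and their list averaged 4.46 to 4.94 in Abcb11-/- livers and 3.54 to 3.88 in WT livers. Among the chondrocyte markers the largest called change was that of Cnmd, at 2.95, 4.84 and 4.03 in Abcb11-/- livers, against 6.76, 6.99 and 6.51 in WT livers (-2.81, adjusted p = 0.00869). The part of bile duct cells in the collagen values was not tested.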

How the data were processed

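Lung RNA (6 arrays) and liver RNA (6 arrays) was hybridised to Affymetrix mouse HT MG430 PM plate arrays. The authors summarised the scanned signals by robust multiarray averaging and deposited log2 values for 45037 probe sets, and the submitters' processing notes name Partek 6.5. No read depth exists for arrays, so their number limits the precision. Lung and liver values were normalised apart by the authors (array medians of 3.63 to 3.68 and 3.15 to 3.18), and the liver values carry 2 decimals. No columns of comparisons were used.

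Probe sets were named from the platform annotation where it gives 1 symbol (28898, with 551 that give several and 15588 with none in that table), and 28689 were matched by gene number to RefSeq (GRCm38.p6), which changed 0 symbols. Members and gene lists were chosen with earlier results of these data known.

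Genes were tested with limma 3.58.1 in R 4.3.3, the livers by genotype and the lungs by stage and mother (2 residual degrees of freedom), with Benjamini-Hochberg adjustment over 17097 genes. Values per array are given for members called, for members 1.5-fold apart by mother and bright at E18.5 or PN0, and for both chains of paired genes. Some others (Col5a1, Col5a2, Col27a1 and dim members) were named after their values were seen. As alternatives, probe sets of a gene were averaged, genes with a mean under 6 were left out, and the fits were repeated with quantile normalisation, a trended robust prior, a replicate block, the methods' test for the liver, no mother term for the lung and leaving out each array. The scripts were tested on simulated data.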

Additional observations from a re-analysis of the deposited data

Results flagged for a closer look

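The median difference with the mother had opposite signs at E18.5 and PN0 over all collagens and in the fibrillar and basement membrane classes, but not in the other class. The median over all 42 collagen genes was -0.0503 at E18.5 and 0.23 at PN0. It was -0.0789 and 0.218 for the fibrillar class, and -0.22 and 0.21 for the basement membrane class. In the other class it was 0.08 at E18.5 and 0.26 at PN0. With averaged probe sets the fibrillar median at E18.5 was 0.0076, so that its signs were no longer opposite. Each stage has 1 array for each mother, so whether the stages differ was not tested. Over all genes the median was 0.01 at both stages (0.0146 and 0.0104).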

How the results depend on the processing

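Calls of collagen genes were few, so single settings moved them. In the liver the 1 call of a higher gene became 2 with a trended robust prior, 2 with the replicate number as a block, 0 with the methods' t-test after adjustment and 3 before it, and 1 to 3 with 1 array left out at a time (3 without Abcb11-/- replicate 2). The 0 calls of lower genes became 1 with quantile normalisation, 3 with the unadjusted t-test, and 0 to 1 with 1 array left out. The gene added by the trended robust prior and by the block was Col4a1. With a mean of at least 6 the count stayed 1, but the gene was Col4a1 and Col5a3 was not among the genes tested. In the lung the 0 calls at E18.5 against E17.5 became 3 higher and 1 lower with the trended robust prior, and 0 to 1 higher and 0 to 3 lower with 1 array left out, the 3 without the E17.5 array with the Abcb11-/- mother. At PN0 against E17.5 the 2 higher calls became 1 with quantile normalisation and 5 with the trended robust prior, and 0 to 1 with 1 array left out, and the 3 lower calls became 0 to 5 with 1 array left out. Without the PN0 array of the WT mother no member was called, Col4a3 included (adjusted p = 0.128). Col15a1 was also lost without the E17.5 array of the WT mother (adjusted p = 0.0860), Col18a1 without that array (adjusted p = 0.0917), without either E18.5 array (adjusted p = 0.0721) and without the other PN0 array (adjusted p = 0.0598), and Col9a1 without those E18.5 and PN0 arrays (adjusted p = 0.0539 and 0.0542) and with averaged probe sets (adjusted p = 0.0515). The causes were not tested. No fold change of a gene followed through the alternatives changed its sign, but 6 of 16 class medians, all near 0, did. The liver median of all collagens (0.0083) was -0.0044 with averaged probe sets and -0.03 to -0.0067 without WT replicate 1 or 2 or Abcb11-/- replicate 1 or 3. That of fibrillar collagens (0.02) was -0.137 without Abcb11-/- replicate 1 and -0.005 without WT replicate 2, and that of other collagens (-0.08) was 0.132 with a mean of at least 6. For the mother, the E18.5 fibrillar median (-0.0789) was 0.0076 with averaged probe sets, and with a mean of at least 6 the E17.5 medians of basement membrane (-0.0446) and other collagens (-0.0736) were 0.0208 and 0.03. The contrasts of PN0 with E18.5 and of the mothers kept 0 calls under each alternative run. Same-numbered livers did not deviate together (r of -0.04, -0.04 and -0.14 over genes), so the numbers showed no sign of a pairing. With 3 arrays per genotype this check cannot exclude a shared litter or batch. The replicate block left 429 higher and 242 lower calls over all genes, against 740 and 498 without it. With 1 array per mother and stage, dim probe sets and array signals rather than counts, small differences were not detectable.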
